A study of Homo sapiens with 6 samples.

Results

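The transcription factors described here shape and hold the identity of pancreatic duct and foregut endoderm cells. The list holds 8 genes: SOX9, HNF4A, GATA6, FOXA1, FOXA2, PDX1, KLF5 and ELF3. Members were taken as every probe set that the platform annotation assigns to 1 of these genes and to no other, which gave 17 of the 54675 probe sets on the array, for 7 of the 8 genes. HNF4A is not analysed here. GNE encodes the enzyme that starts sialic acid synthesis from UDP-GlcNAc, and the study silenced it in Capan-1, an established cell line from a human pancreatic carcinoma. The siGNE group was 3 arrays of cells transfected with siRNA against GNE, and the control group was 3 arrays of cells transfected with what the labels call allStar. Both groups received siRNA at 0.4 µg per well in 2 rounds 48 h apart and were harvested 72 h after the second round. Separate cultures for the arrays are not stated, and p-values here measure only the spread between these arrays, which may be technical.

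During development FOXA1 and FOXA2, which are forkhead factors, open chromatin in the gut tube and allow other factors to bind there. PDX1, SOX9 and GATA6 then specify and maintain pancreatic progenitors, and SOX9 stays on in adult ducts while PDX1 becomes largely restricted to endocrine cells. KLF5 and ELF3 are epithelial factors of the Krüppel-like and ETS families. In pancreatic cancer, GATA6 and HNF4A are known as markers of the gland-forming classical tumour subtype.

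Values are log2 expression as the authors normalized it. A probe set was tested where its mean over the 6 arrays was above 4, since array medians lay between 2.96 and 3.02 and values near them are close to background. The titles number the arrays 1 to 3 in each group, and a pair is the siGNE and the control array of 1 number. Differences are siGNE minus control, from a limma fit with the replicate number as a block, and calls were made at an adjusted p under 0.05, with all 22085 tested probe sets in the adjustment. Of the 17 member probe sets, 12 were tested, for 6 genes, and 5 were not: all 3 of PDX1, 1 of FOXA2 and 1 of GATA6. Levels of different genes are not compared, because probes differ in how well they bind.

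GNE itself was lower in all 3 pairs, at 9.27 ± 0.78 in siGNE cells and 11.15 ± 0.30 in control cells (SD, n = 3 each), a difference of -1.88 (SE 0.29, limma adjusted p 0.0348, and 0.131 without the replicate block). An exact two-sided permutation of the GNE values, made without regard to the pairs, gave p = 0.1. No smaller p is possible with 3 against 3 arrays permuted in this way. Of the 14 duct markers with a probe set, 13 were tested, and only CFTR, the chloride channel of duct cells, stayed below 4 on every array. Markers of other cell types were mostly below 4 on all 6 arrays: 7 of 8 for acinar cells, 6 of 6 for endocrine cells, 6 of 8 for fibroblasts and 7 of 7 for leukocytes and endothelium.

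No member passed the test after GNE silencing. Of the 12 tested probe sets, 0 were called higher and 0 lower, where 9.49% of all tested probe sets were called, 4.13% higher and 5.35% lower. Without the block the limma fit called 0 of the 12, where it called only 0.0408% of all tested. With so few member probe sets, 0 calls is close to the share over all tested in either fit. At an unadjusted p under 0.05, the fit with the block gave 4 of the 12, against 31.6% of all tested, and the fit without it gave 0, against 14.6%. The median difference of the 12 was -0.18, against -0.01 over all tested probe sets, and 10 of the 12 were below 0, against 51.4% of all tested. With only the probe set of highest mean for each gene, the median over the 6 genes was -0.02, the same as over all 10733 tested genes. The 6 additional probe sets, which share their target genes with the others, were all below 0. The share of such additional probe sets below 0 over all genes was not computed. In these bulk samples fewer cells of a kind and less RNA per cell cannot be told apart. Of the 12, 1 was higher in all 3 pairs and 5 were lower in all 3, against 26.5% and 29.1% of all tested, so 6 kept 1 sign, against 55.5%. For none of the 12 did the siGNE and control values separate completely, which 20.4% of all tested probe sets did.

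**Figure D1:**
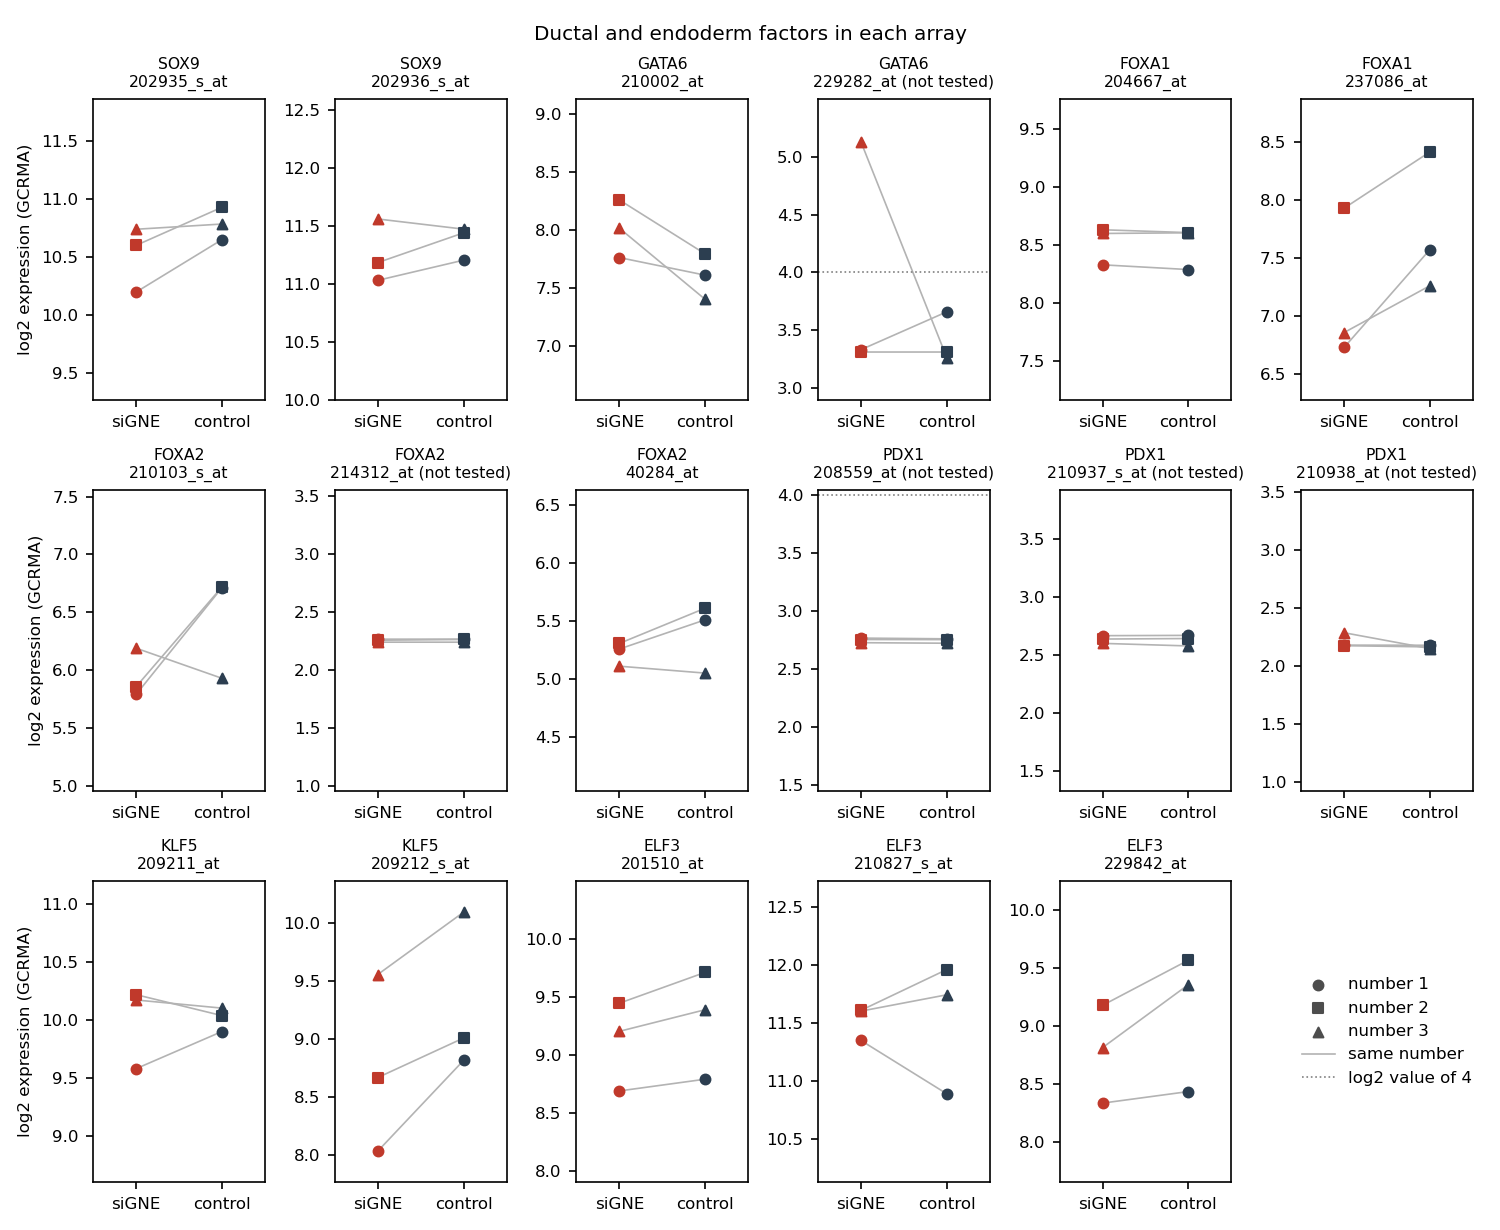
Log2 expression of the 17 member probe sets, siGNE arrays in red on the left and control arrays in dark blue on the right, with a grey line joining arrays of the same number. All panels span the same number of log2 units. The lines of PDX1 are flat near background, and those of GATA6 210002_at all run higher on the siGNE side. Those of FOXA1 237086_at, KLF5 209212_s_at, SOX9 202935_s_at, ELF3 201510_at and ELF3 229842_at all run lower there.

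GATA6, a zinc finger factor of foregut endoderm, was the only member higher in all 3 pairs on a tested probe set. Probe set 210002_at read 7.76, 8.26 and 8.02 on siGNE arrays 1, 2 and 3, against 7.61, 7.79 and 7.40 on the control arrays. The groups overlapped only through siGNE array 1, which lay just under control array 2. The difference was 0.41 (SE 0.12), a 1.33-fold higher level with a 95% interval from 1.07 to 1.65, and it did not pass (limma adjusted p 0.0936, and 0.367 without the block). By pair it was 0.15, 0.47 and 0.61. The other GATA6 probe set, 229282_at, read 3.33, 3.31 and 5.13 on siGNE arrays and 3.66, 3.31 and 3.27 on control arrays. Its high value was on siGNE array 3 alone, and with all probe sets tested its difference of 0.51 had a limma adjusted p of 0.826.

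SOX9, an HMG-box factor that marks ducts and progenitors, is read by a pair of probe sets. Probe set 202936_s_at read 11.03, 11.18 and 11.56 on siGNE arrays and 11.20, 11.44 and 11.47 on control arrays. Its groups overlapped, and its difference of -0.11 had a 95% interval from -0.39 to 0.16 (limma adjusted p 0.505). On 202935_s_at the values were 10.20, 10.60 and 10.74 in siGNE cells and 10.65, 10.93 and 10.79 in control cells. It was lower in all 3 pairs but by 0.05 only in pair 3, and its difference of -0.28 (95% interval -0.57 to 0.02) did not pass (limma adjusted p 0.174). The intervals leave a fall of SOX9 to 0.675 of the control level possible on the second of these probe sets.

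FOXA1 gave different values on its 2 probe sets. Probe set 204667_at read 8.33, 8.63 and 8.60 on siGNE arrays, against 8.29, 8.61 and 8.61 on control arrays. Each siGNE array lay within 0.05 of its control partner, and the difference of 0.02 had a 95% interval from -0.19 to 0.23 (limma adjusted p 0.891). Probe set 237086_at read 6.73, 7.93 and 6.86 on siGNE arrays, against 7.58, 8.42 and 7.26 on control arrays. It was lower by 0.84, 0.49 and 0.40 in pairs 1, 2 and 3, although array 2 of either group lay above all arrays of other numbers. Its difference of -0.58 (SE 0.12, fold 0.670) missed the threshold narrowly at a limma adjusted p of 0.0508 (0.622 without the block). It passed under 5 of the alternative settings with the block, at a limma adjusted p between 0.0257 and 0.0495.

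KLF5, a Krüppel-like factor of proliferating epithelium, showed the same kind of split. On 209211_at the siGNE arrays read 9.58, 10.22 and 10.17, and the control arrays 9.90, 10.04 and 10.10. The pairs went different ways, at -0.32, 0.18 and 0.07, and the mean difference of -0.02 had a 95% interval from -0.35 to 0.31 (limma adjusted p 0.918). On 209212_s_at the siGNE arrays read 8.03, 8.67 and 9.55, and the control arrays 8.81, 9.01 and 10.09. All pairs were lower, by 0.78, 0.34 and 0.54, while array 3 of either group lay above all arrays of other numbers. The difference of -0.55 (SE 0.12, fold 0.681) did not pass (limma adjusted p 0.0518, and 0.697 without the block), and it passed under 4 of the alternative settings with the block, at 0.0269 to 0.0426.

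The disagreement between probe sets of a gene was tested by fitting, in limma with the block, the within-array difference between each additional probe set and the one of highest mean, for 8532 such comparisons over 5222 genes. For KLF5 the change was lower by 0.53 on 209212_s_at than on 209211_at (SE 0.12, limma adjusted p 0.0894). The FOXA1 change was lower by 0.60 on 237086_at than on 204667_at (SE 0.14, limma adjusted p 0.102). Neither passed, while only 107 of all 8532 comparisons (1.25%) did. The unadjusted limma p was 0.00397 for KLF5 and 0.00601 for FOXA1, where 17.9% of all comparisons had one under 0.05. The comparisons for SOX9 (limma adjusted p 0.581) and for ELF3 201510_at and 229842_at (0.678 and 0.311) did not pass either. Over the 6 arrays the values of the FOXA1 probe sets had a Pearson r of 0.36 and those of KLF5 0.66, where the median over all comparisons was 0.47. These arrays share pairs, so the r values are descriptions. The probe sequences and the transcripts they read were not used here.

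**Figure D2:**
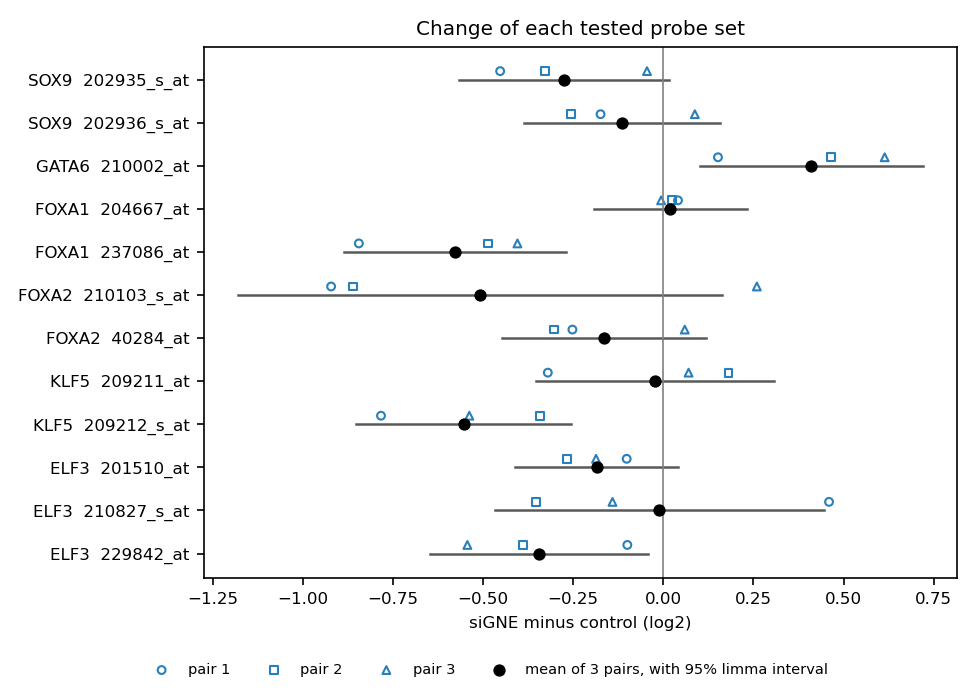
Difference of each of the 12 tested member probe sets, siGNE minus control on the log2 scale, as a filled point with its 95% limma interval (fit with the block), and the 3 pairs as open marks above it. All intervals but that of FOXA2 210103_s_at lie between -1 and 1, and probe sets of FOXA1 and of KLF5 sit apart from each other.

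FOXA2, the other forkhead member, differed between pairs. Probe set 210103_s_at read 5.79, 5.86 and 6.19 on siGNE arrays and 6.71, 6.72 and 5.93 on control arrays. In pairs 1 and 2 siGNE cells were lower by 0.92 and 0.86, and in pair 3 they were higher by 0.26. The mean difference was -0.51 (SE 0.26, 95% interval -1.18 to 0.16, limma adjusted p 0.251). Probe set 40284_at had the same signs by pair, at -0.25, -0.30 and 0.06, with 5.26, 5.30 and 5.11 in siGNE cells and 5.51, 5.61 and 5.05 in control cells. Its difference was -0.17 (limma adjusted p 0.358), and the within-array comparison of the 2 FOXA2 probe sets gave a limma adjusted p of 0.460. The third FOXA2 probe set, 214312_at, stayed between 2.24 and 2.27 on all arrays.

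PDX1, the homeobox factor of pancreatic progenitors and beta cells, was at background. Its 3 probe sets had siGNE means of 2.75, 2.63 and 2.21 and control means of 2.74, 2.63 and 2.16 (SD at most 0.06). No array reached 3 on any of them, so whether PDX1 changed could not be measured.

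ELF3, an ETS factor of secretory epithelium, varied far more with the array number than with the siRNA. Probe set 210827_s_at read 11.35, 11.61 and 11.60 on siGNE arrays and 10.89, 11.96 and 11.74 on control arrays. The siGNE array was higher in pair 1 by 0.46 and lower in pairs 2 and 3 by 0.35 and 0.14, and the mean difference was -0.01 (95% interval -0.47 to 0.44, limma adjusted p 0.974). Probe set 201510_at read 8.69, 9.44 and 9.20 on siGNE arrays and 8.79, 9.71 and 9.39 on control arrays. Probe set 229842_at read 8.34, 9.18 and 8.81 on siGNE arrays and 8.44, 9.57 and 9.36 on control arrays. These last 2 were lower in all 3 pairs. Their differences were -0.18 (95% interval -0.41 to 0.04) and -0.34 (95% interval -0.65 to -0.04), and neither passed (limma adjusted p 0.222 and 0.124). On all 3 ELF3 probe sets array 1 was the lowest of its group.

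In control cells the level of each factor was as follows, each as log2 mean ± SD over 3 arrays. SOX9 had 11.37 ± 0.15 and 10.79 ± 0.14, and GATA6 had 7.60 ± 0.20 and, close to background, 3.41 ± 0.22. FOXA1 had 8.50 ± 0.18 and 7.75 ± 0.60. FOXA2 had 6.46 ± 0.45, 5.39 ± 0.30 and, at background, 2.26 ± 0.01. KLF5 had 10.01 ± 0.10 and 9.30 ± 0.69, and ELF3 had 11.53 ± 0.57, 9.12 ± 0.60 and 9.30 ± 0.47. Thus 6 of the 7 measured factors had a probe set above background in Capan-1 cells, and PDX1 had none.

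The members' spread over the arrays lay mostly with the array number. Splitting each probe set's sum of squares over the 6 arrays, the number took more than the siRNA for 10 of the 12 tested member probe sets, against 69.5% of all tested, with a median share of 74.3% against 58.0% over all tested. The siRNA took a median of 15.6%, against 19.5% over all tested. The number has more degrees of freedom than the siRNA in this split. It would thus take the larger share more often even where neither had an effect. For FOXA1 204667_at the number took 99.1%, and for ELF3 201510_at it took 92.6%. GATA6 210002_at and FOXA2 210103_s_at were the exceptions, with 55.8% and 43.4% for the siRNA, against 31.9% and 6.79% for the number. What the number stands for, such as a day or a passage, is not given in the labels.

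**Figure D3:**
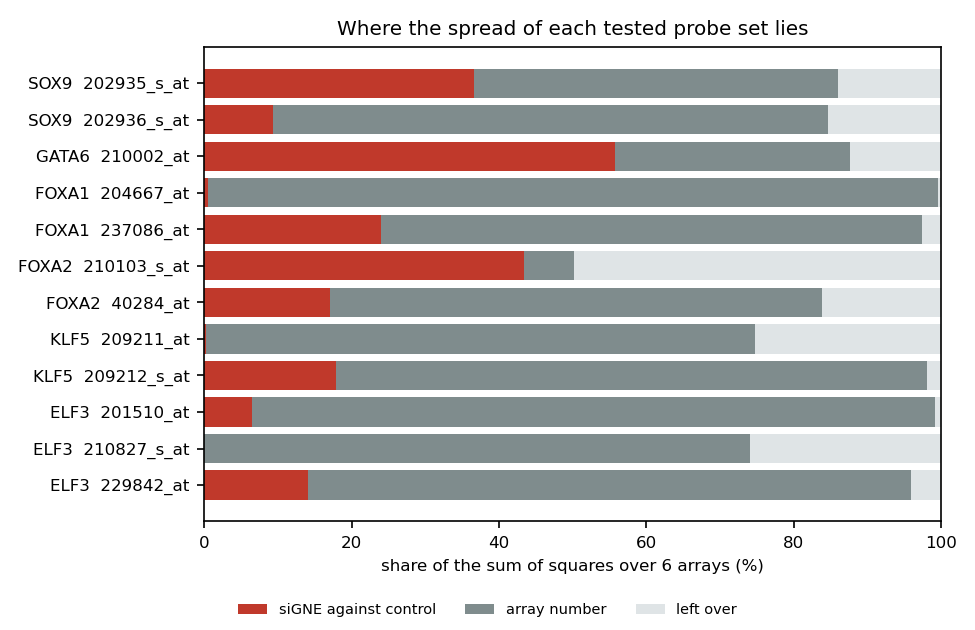
Share of each tested member probe set's sum of squares over the 6 arrays that lies with siGNE against control (red), with the array number (dark grey) and with neither (light grey), in percent. Dark grey is the longest part of each bar except for GATA6 210002_at, where red is, and FOXA2 210103_s_at, where light grey is.

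How large a change could have been missed is given by the intervals. For 11 of the 12 tested member probe sets the 95% limma interval with the block lay within 1 on the log2 scale of no change, that is, within a 2-fold change either way, as it did for 90.4% of all tested. The exception was FOXA2 210103_s_at, whose lower bound was 0.442 of the control level. The median standard error of the 12 was 0.12, against 0.11 over all tested. These bounds hold only for the fit with the block and with the filter at a mean above 4. With the block but all probe sets tested, the interval of FOXA2 210103_s_at widened to -1.65 to 0.64. That of FOXA1 204667_at narrowed to -0.03 to 0.07. Without the block the standard error was larger for every tested member probe set but FOXA2 210103_s_at. For KLF5 209212_s_at and FOXA1 237086_at it was 0.49 and 0.42, against 0.12 for each with the block.

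Other transcription factors of foregut endoderm and pancreas included some called changes. Of 22 with a probe set 14 were tested, and 2 were called higher and 0 lower, where 9.89% of all tested genes were called, 4.11% higher and 5.79% lower. The median difference of the 14 was 0.11, against -0.02 over all tested genes. In limma with the block 5 of the 14 had an unadjusted p under 0.05, against 31.6% of all tested probe sets. ONECUT2, a cut-homeobox factor of endoderm, read 6.35, 6.39 and 5.81 on siGNE arrays and 5.13, 5.47 and 4.86 on control arrays. All siGNE values lay above all control values, and the gene rose by 1.03 (SE 0.10, limma adjusted p 0.0241, and 0.138 without the block). GLIS3, a Krüppel-like zinc finger factor of pancreas development, rose by 0.47 (limma adjusted p 0.0432, and 0.351 without the block). FOXA3, the third forkhead paralog of FOXA1 and FOXA2, read 3.44, 4.24 and 3.94 on siGNE arrays and 4.81, 4.85 and 4.56 on control arrays. Its siGNE values all lay below its control values, partly at background, and the difference of -0.87 did not pass (limma adjusted p 0.0511). The Notch target HES1 differed by -0.36 (limma adjusted p 0.1003).

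Among 22 other epithelial factors with a probe set, 20 were tested, 1 was called higher and 1 lower, and the median was -0.03. The share called was 10%, against 9.89% of all tested genes. In limma with the block 6 of the 20 had an unadjusted p under 0.05, against 31.6% of all tested probe sets. The ETS family gene ETS2 rose by 0.66 (limma adjusted p 0.0490), with 8.30, 8.30 and 8.65 on siGNE arrays and 7.92, 7.65 and 7.71 on control arrays. TFCP2L1, a grainyhead-related factor, fell by 0.48 (limma adjusted p 0.0498). TFAP2A, an AP-2 factor, differed by -0.88 and the Krüppel-like KLF10 by -0.28, and these did not pass (limma adjusted p 0.0643 and 0.112). Neither ETS2 nor TFCP2L1 passed in limma without the block (adjusted p 0.145 and 0.494).

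Genes of the classical subtype, which GATA6 is known to mark, were not called. Of 21 with a probe set 11 were tested and 0 were called, against 9.89% of all tested genes, and the median was -0.04. In limma with the block 2 of the 11 had an unadjusted p under 0.05, against 31.6% of all tested probe sets. The trefoil peptide TFF2 read 11.86, 11.94 and 11.66 on siGNE arrays and 12.01, 12.25 and 11.99 on control arrays. Its groups did not overlap, but its difference of -0.26 did not pass (limma adjusted p 0.125). VSIG2 differed by -0.52, the sialyltransferase ST6GALNAC1 by -0.18 and the annexin ANXA10 by -0.10, with limma adjusted p of 0.104, 0.420 and 0.494.

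Basal-like subtype genes moved in either direction. Of 18 with a probe set 12 were tested, 2 were called higher and 1 lower, and the median was 0.21. The share called was 25%, against 9.89% of all tested genes, whose median was -0.02. In limma with the block 7 of the 12 had an unadjusted p under 0.05, against 31.6% of all tested probe sets. No test of the list as a set was run. SCEL, which encodes sciellin of the cornified envelope, rose by 1.85 (SE 0.14, limma adjusted p 0.0195), with 10.94, 10.42 and 9.98 on siGNE arrays and 8.78, 8.57 and 8.43 on control arrays. S100A2, a calcium-binding protein, fell by 0.99 (SE 0.12, limma adjusted p 0.0272), with 9.32, 9.64 and 9.01 on siGNE arrays and 10.40, 10.37 and 10.17 on control arrays. In both genes the groups were fully apart. CST6, a cystatin, rose by 0.51 (limma adjusted p 0.0381), and the TEAD cofactor VGLL1 differed by 0.97 and did not pass (limma adjusted p 0.0581). Without the block none of SCEL, S100A2 and CST6 passed in limma (adjusted p 0.0785, 0.110 and 0.827).

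Known targets of HNF4A in liver and gut were mostly at background, with 4 of 15 tested and 10 of 15 below 4 on all arrays. None of the 4 was called, where 9.89% of all tested genes were. In limma with the block 0 had an unadjusted p under 0.05, where 31.6% of all tested probe sets did. APOM, SERPINA1, A1CF and APOA4 differed by -0.31, -0.32, 0.20 and -0.01.

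Of the 13 tested duct markers 1 was called higher and 0 lower, with a median of 0.09. The share called was 7.69%, against 9.89% of all tested genes. In limma with the block 4 of the 13 had an unadjusted p under 0.05, against 31.6% of all tested probe sets. SPP1, the secreted phosphoprotein osteopontin, rose by 1.19 (SE 0.24, limma adjusted p 0.0491, and 0.296 without the block), with 12.16, 12.72 and 12.49 on siGNE arrays and 10.27, 11.90 and 11.64 on control arrays. The keratin KRT8 differed by 0.27, the carbonic anhydrase CA2 by -0.89 and the tight junction protein CLDN4 by 0.26, and none of these passed (limma adjusted p 0.114, 0.136 and 0.142). The mean log2 level per array over the acinar markers was 3.13 to 3.28 in siGNE cells and 3.07 to 3.23 in control cells. Over the fibroblast markers it was 3.88 to 4.13 in siGNE cells and 3.87 to 4.11 in control cells. Endocrine markers lay at 2.31 to 2.34 in siGNE cells and 2.33 to 2.35 in control cells, and leukocyte and endothelial markers at 2.50 to 2.54 in either group. The ranges of the groups thus overlapped for all 4 lists. Within these lists the smooth muscle actin ACTA2 fell by 0.52 and the collagen COL1A1 rose by 0.71 (limma adjusted p 0.0422 and 0.0441), while BHLHA15, a factor of secretory cells, differed by 0.28 (limma adjusted p 0.145). Neither ACTA2 nor COL1A1 passed in limma without the block (adjusted p 0.420 and 0.512). Their part in the results on the members was not tested.

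**Figure D4:**
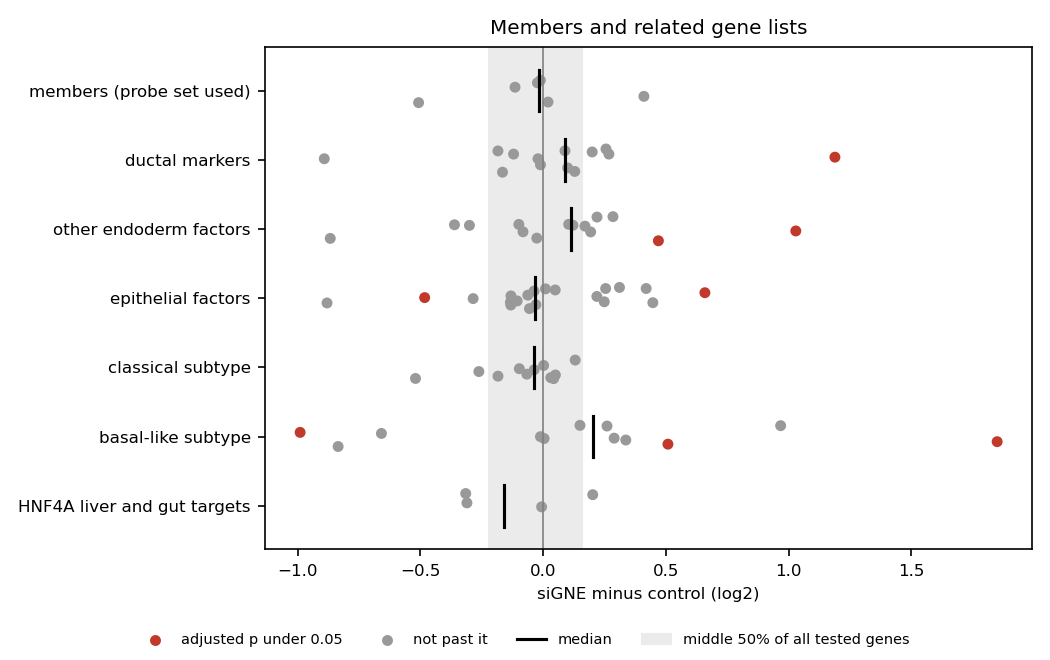
Difference of each tested gene, siGNE minus control on the log2 scale, for the 6 tested members and 6 gene lists, with red for genes past an adjusted p of 0.05 in limma with the block, a black bar for the median of each list and grey shading for the middle 50% of all tested genes. No member is red, and the median of the members lies near 0.

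The member probe set with the smallest unadjusted p was FOXA1 237086_at, and the genes whose values followed it most closely over the 6 arrays were STXBP6, DCLRE1C, PNISR-AS1, TTC8 and CSNK1G2. Their Pearson r ran from 0.985 to 0.988, and 58 of 10732 other tested genes had an r above 0.95. These genes share with it the high array 2 in either group. With 6 arrays in 3 pairs these values are descriptions only.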

How the data were processed

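RNA of Capan-1 cells was hybridised to 6 Affymetrix arrays, and the series' value table was used as deposited by the authors. Its values are log2 expression, made with GCRMA per the submitters' processing notes. That the scale is log2 follows from their range, 0.612 to 16.3. GCRMA models background from probe sequence, and small values may misstate change, which was not tested here. Its version is not given in the sources used here. Arrays have no read depth, and their number limits the precision.

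The platform annotation gave the gene of a probe set, and symbols were updated by gene identifier from a RefSeq table of GRCh38.p14. In all, 41097 probe sets had 1 symbol (41043 of them found in that table), 1801 several and 11777 none. The test was limma 3.58.1 in R 4.3.3 (lmFit, eBayes) with the title number as a block, which leaves 2 residual degrees of freedom, or 4 without it, and Benjamini-Hochberg adjustment over probe sets with a mean above 4, without 62 control probe sets. Deviations from the group means correlated at 0.58, 0.71 and 0.83 between arrays of the same number, all above the limit of 0.1, and at -0.64 to 0.17 otherwise, so the numbers in the titles pair the arrays. The script was tested on simulated data.

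For list genes 1 probe set was used, that of highest mean, leaving out those prone to cross-hybridisation where there was another. Named are all members, GNE, up to 4 genes of each list by smallest p with any others that passed, and 5 genes by likeness. CFTR was named after its values were seen. The members and lists were chosen with earlier results of these data known. The comparison of probe sets within a gene was added after seeing the data. Alternatives were no block, other filters, a floor, 2 normalizations, other variances, a looser threshold, averaged probe sets and leaving out each pair.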

Additional observations from a re-analysis of the deposited data

How the results depend on the processing

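With 3 arrays a group and 2 residual degrees of freedom, calls depended on the settings. Of 136 recomputed member differences, 128 kept their direction, but many of these could not have changed. Removing the block, other filters, the floor, other variances and a looser threshold leave a member's difference as it is. The 8 that reversed were of FOXA1 204667_at, KLF5 209211_at and ELF3 210827_s_at, whose reported differences are 0.02, -0.02 and -0.01. Averaging the probe sets of FOXA1 gave -0.28 (limma adjusted p 0.114). Quantile normalization gave 0.0016 for KLF5 209211_at and 0.014 for ELF3 210827_s_at, and median centring gave 0.018 and 0.030. Leaving out pair 1, 2 or 3 in turn gave -0.13 to 0.13 for KLF5 209211_at and -0.25 to 0.16 for ELF3 210827_s_at. FOXA2 210103_s_at was at -0.89 without pair 3 and at -0.30 without pair 1. The cause was not tested. Leaving out 1 array of a pair is the same as leaving out the pair when the block is fitted.

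Member probe sets called lower were 2 with a mean above 6, with quantile normalization, with median centring, with trended and robust variances and at an adjusted p under 0.1, and 1 with values under 4 set to 4. These were FOXA1 237086_at and KLF5 209212_s_at, and FOXA1 237086_at alone with the floor. At an adjusted p under 0.1, GATA6 210002_at was the 1 called higher. Over all probe sets, 913 were called higher and 1182 lower. With no replicate block there were 9 and 0, and the lists had 0 and 0 in place of 7 and 3. Without a filter there were 0 and 0, with 7167 of 54613 at an unadjusted p under 0.05, and 0 and 0 in the lists. Leaving out any 1 pair gave 0 calls in each direction, in the lists too, with 5022 to 5529 at an unadjusted p under 0.05 in limma. A mean above 6 gave 1374 and 1944 of 17580 tested, trended and robust variances 1441 and 1916, and an adjusted p under 0.1 gave 2068 and 2755. Quantile normalization gave 1242 and 1404, median centring 1288 and 1388, and values under 4 set to 4 gave 928 and 1221, so under all 6 settings that called a member the calls over all probe sets were also more. In the lists 5 were called lower with trended and robust variances and 6 at an adjusted p under 0.1. GNE did not pass with no replicate block (-1.88, limma adjusted p 0.131) or without a filter (-1.88, 0.265), and leaving out a pair gave -2.17 to -1.45 without passing.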
